A study of Mus musculus with 8 samples.

Results

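Pericytes are the mural cells that wrap the smallest vessels, and 9 genes known as their markers were followed in brain of mouse embryos at E12.5: Rgs5, Pdgfrb, Cspg4, Abcc9, Anpep, Vtn, Foxf2, Tbx18 and Notch3. Every probe set that the array annotation gives to 1 of these genes alone was taken, which came to 20 probe sets of the 45037 measured and to 9 genes of 18193. The genes were chosen by earlier results of the same comparison, in which Rgs5 and Cspg4 had been noted as higher in Cre+ arrays, so all their values are given as a description with no test. The comparison asks how these genes differ between brains of Cre+, Rest GTi/GTi embryos and of Rest GTi/GTi controls, with 4 arrays of each genotype.

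REST is a transcriptional repressor that keeps neuronal genes silent in progenitors and in tissues outside the nervous system. Embryos of both genotypes were of the strain C57/BL6 and homozygous for Rest GTi, an inverted gene trap that leaves splicing of Rest normal until Cre recombinase turns it around. Cre+ embryos also carried a Nestin Cre transgene, whose promoter is active in neural progenitors, and no control did, so the effects of Cre and of REST loss cannot be told apart. Total RNA of freshly dissected brain was hybridised to 1-colour Affymetrix arrays, where a probe set is a group of short probes for the same transcript and a gene can have several. GEO's labels call the arrays biological replicates. Whether an array holds 1 embryo or several is not stated, so the spread between arrays may be partly technical.

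Brain pericytes sit within the basement membrane of capillaries, share that membrane with endothelial cells and help to form the blood-brain barrier. Endothelial cells release PDGF-B, which recruits pericytes through the receptor PDGFRB, and Notch signalling between the cells keeps mural cells in their state. Pericytes of the forebrain descend from neural crest and those of the hindbrain from mesoderm. Whether Nestin Cre was active in pericytes was not measured here. None of the 9 genes is limited to pericytes. Smooth muscle, fibroblasts of the meninges, oligodendrocyte precursors or liver make some of them as well.

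Intensities below are quantile-normalized across the 8 arrays, and a difference is given on the log2 scale of the intensity plus 16 as Cre+ minus control, with its standard error (SE). In a whole-brain sample, fewer cells of a type and less RNA per cell cannot be told apart. The neural genes Sox2, Nes and Tubb3 were bright on all 8 arrays, at 3629 to 4503, 987 to 1490 and 5673 to 7186. The arrays differed in other ways. Control replicates 2 and 3 had female signal, with 7875 and 8247 for the X-inactivation RNA Xist and 5.66 and 0.21 for Eif2s3y of the Y chromosome. The other 6 arrays, every Cre+ array among them, had male signal, with at most 57.8 for Xist and at least 627 for Eif2s3y. Cre+ replicates 1 and 2 stood apart for collagen III of mesenchyme (Col3a1), at 4864 and 4571 where no other array passed 555. Rest itself read 163.1, 216.7, 84.4 and 133.7 on Cre+ replicates 1 to 4 against 170.1, 271.8, 211.1 and 198.3 on the controls (log2 difference -0.51, SE 0.25, limma adjusted p = 0.758). The arrays labelled Cre+ thus overlapped with controls for Rest, and where its probes lie relative to the trap is not known here.

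On the brightest probe set of each gene, the 9 log2 differences ran from 0.01 to 1.05, all above 0, with a median of 0.34 against -0.0014 over all 18193 genes. For 3 of the 9, Rgs5, Cspg4 and Vtn, every Cre+ array lay above every control, and for the other 6 the genotypes overlapped. Over all genes 452, or 2.48%, were separated in this way. Since the genes were selected on this contrast, nothing is read from these counts. As the background for the gene lists further on, limma called 39 of all genes, or 0.214%, higher and 2, or 0.011%, lower at an adjusted p under 0.05. For separated genes in those lists the background is the 2.48% above. The share of all genes at an unadjusted p under 0.05 was not counted. List counts at that threshold are therefore a description, and nothing is read from them.

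The sequences just upstream of the 3 separated genes are shown because they were the genes whose brightest probe set set the genotypes apart. Each is the run of 250 bases that ends at the base before the RefSeq transcript start, from the GRCm38.p6 build and read 5′ to 3′ on the plus strand. Capitals mark short motifs searched on both strands: GGACAG, the right part of the RE1 element that REST binds, TGGGAA, the core bound by the Notch effector RBPJ, the GC box GGGCGG and the TATA box TATAAA.
Rgs5, chr1:169655251-169655500: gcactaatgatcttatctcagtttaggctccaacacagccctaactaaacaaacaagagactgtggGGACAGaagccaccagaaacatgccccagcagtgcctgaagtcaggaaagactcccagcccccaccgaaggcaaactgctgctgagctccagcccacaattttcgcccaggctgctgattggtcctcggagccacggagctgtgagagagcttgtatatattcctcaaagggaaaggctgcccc
Cspg4, chr9:56864854-56865103: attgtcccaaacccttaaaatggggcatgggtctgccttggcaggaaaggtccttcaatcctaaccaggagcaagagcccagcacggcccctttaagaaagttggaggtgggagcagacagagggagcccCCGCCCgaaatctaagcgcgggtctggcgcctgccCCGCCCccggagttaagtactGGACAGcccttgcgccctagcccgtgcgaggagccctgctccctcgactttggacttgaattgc
Vtn, chr11:78498870-78499119: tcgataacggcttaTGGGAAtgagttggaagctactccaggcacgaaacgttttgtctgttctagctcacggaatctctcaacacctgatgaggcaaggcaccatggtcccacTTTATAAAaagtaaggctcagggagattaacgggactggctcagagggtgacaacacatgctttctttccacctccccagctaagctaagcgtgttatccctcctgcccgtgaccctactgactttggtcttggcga

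The left part of the RE1 element, TTCAGCACC, was in 0 of the 8 windows available for these genes and in 0.301% of the 32851 windows of the table. The right part, GGACAG, was in 5 of the 8 (Rgs5, Anpep, Cspg4, Tbx18 and Foxf2) and in 18.7% of all windows. The RBPJ core was in the windows of Abcc9, Tbx18 and Vtn and in 21.6% of all. GC boxes were in 5 of the 8 and in 32.7% of all, and among the 3 windows shown only that of Cspg4 held any. The window of Vtn was the 1 member window with a TATA box, matched on both strands in overlapping bases, against 12.4% of all windows. Such matches describe letters in a window and no binding site. No window was used for Pdgfrb.

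Vtn encodes vitronectin, a matrix protein that binds integrins and that brain pericytes make in quantity. Its brightest probe set read 813.9, 527.6, 660.7 and 595.4 on Cre+ replicates 1 to 4 and 446.5, 232.7, 237.3 and 328.0 on control replicates 1 to 4. The lowest Cre+ array was thus above the highest control, with means of 649 ± 122 and 311 ± 100.4 (SD, n = 4 each). The log2 difference was 1.05 (SE 0.22). The other probe set of the gene read 237.6, 183.2, 191.1 and 160.3 on the Cre+ arrays against 143.2, 53.7, 54.8 and 105.0 on the controls, again without overlap, for a log2 difference of 1.07 (SE 0.27). Both probe sets put control replicate 1 highest among controls and Cre+ replicate 1 highest of all. With the 2 male controls alone the log2 difference of the brightest probe set was 0.72.

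Rgs5, a regulator of G protein signalling that is among the most used markers of brain pericytes, was read by 4 probe sets that did not give the same picture. The brightest read 584.9, 540.8, 550.1 and 541.5 on the Cre+ arrays and 481.4, 380.7, 444.7 and 499.9 on the controls. Means were 554 ± 20.8 and 452 ± 52.6 (SD, n = 4 each), a log2 difference of 0.29 (SE 0.09). On the other 3 probe sets the genotypes overlapped. The second brightest, an _x_at set that can cross-hybridise, read 118.7, 105.1, 121.2 and 118.8 against 97.6, 114.6, 141.7 and 108.4, a log2 difference of 0.01 (SE 0.11). The 2 dimmest gave 0.15 (SE 0.13) and 0.18 (SE 0.23), at intensities of 48.2 to 76.6 and of 7.0 to 34.8. Averaged over all 4 probe sets the log2 difference of Rgs5 was 0.16, and the genotypes overlapped. With the 2 male controls alone that of the brightest was 0.17, still without overlap.

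Cspg4 encodes NG2, a proteoglycan on the surface of pericytes and of oligodendrocyte precursors. The brighter of its 2 probe sets was dim, at 39.96, 42.5, 44.9 and 38.3 on Cre+ replicates 1 to 4 and 28.1, 35.7, 25.8 and 34.5 on the controls. Means were 41.4 ± 2.87 and 31.0 ± 4.85 (SD, n = 4 each), and the log2 difference was 0.29 (SE 0.09). The other probe set read 36.6, 39.1, 25.1 and 29.0 against 21.3, 23.8, 3.2 and 27.5 and overlapped, as Cre+ replicate 3 lay below control replicate 4. At these intensities the added constant sets much of the size: the log2 difference of the brighter probe set was 0.42 with a constant of 1 and 0.18 with a constant of 50.

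**Figure D1:**
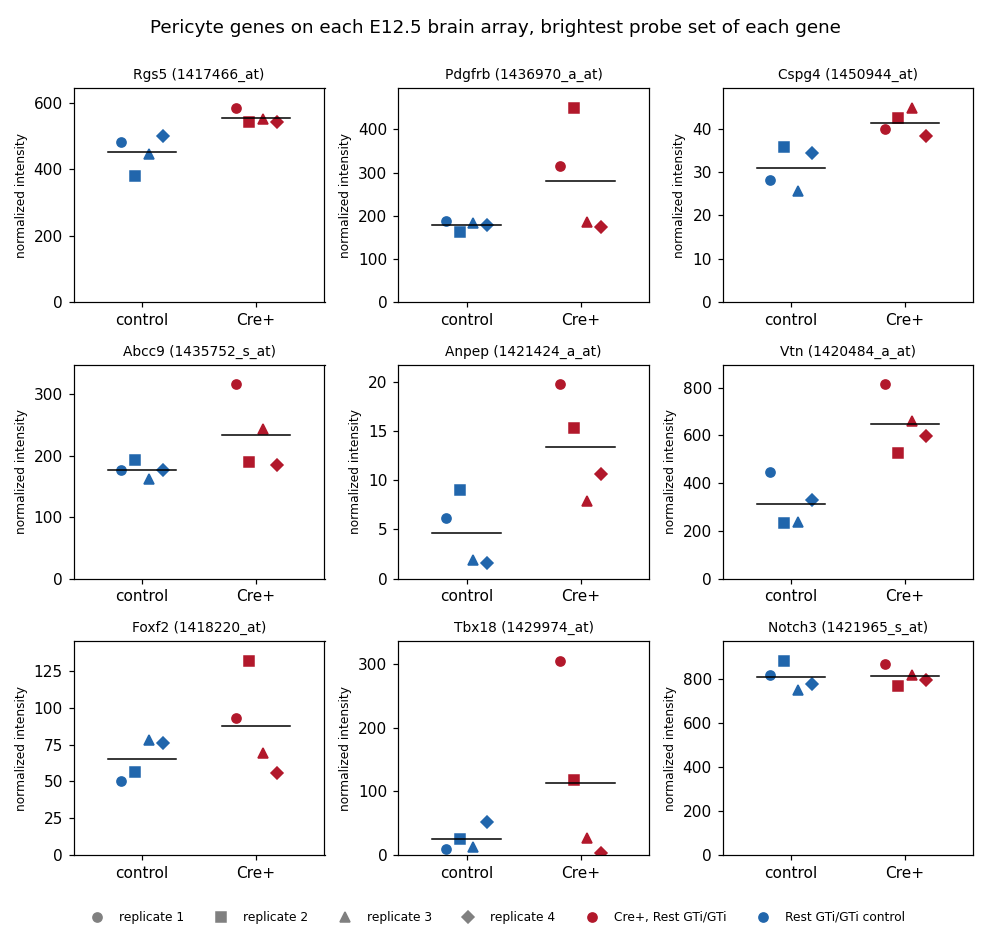
Quantile-normalized intensity (linear axis from 0) of the brightest probe set of each of the 9 pericyte genes, 1 point per array, marker shape for the replicate number and horizontal lines for the mean of 4 arrays. For Rgs5, Cspg4 and Vtn the Cre+ points all lie above the control points. For Pdgfrb, Anpep, Foxf2 and Tbx18 the highest points are Cre+ replicates 1 and 2.

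Separation by genotype depended on the scaling between arrays. In the deposited values, Cre+ replicate 4 was the dimmest array of its genotype for these 3 genes. Vtn then read 981.1, 510.1, 809.8 and 430.2 on the Cre+ arrays against 442.9, 234.3, 187.8 and 356.8 on the controls. Without scaling, 0 of the 9 genes were separated, against 1.13% of all genes, and the log2 differences of Vtn, Rgs5 and Cspg4 were 1.12, 0.35 and 0.37. With a common median for all arrays Vtn and Cspg4 stayed separated and Rgs5 did not. Leaving out control replicate 2 brought the number of separated genes to 5, by adding Abcc9 and Anpep, against 3.7% of all genes, and comparison with the 2 male controls gave the same 5, against 7.18%.

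The genes of signalling from the endothelium came next. Pdgfrb, the receptor through which PDGF-B recruits pericytes, read 315.7, 450.2, 185.5 and 173.5 on Cre+ replicates 1 to 4 and 188.5, 162.6, 182.6 and 179.1 on the controls. Cre+ replicates 1 and 2 were high and the other 2 lay among the controls. Means were 281 ± 130 and 178 ± 11.1 (SD, n = 4 each), with a log2 difference of 0.52 (SE 0.27). Its dimmer probe set had the same order among Cre+ arrays, with 67.7 and 109.0 on Cre+ replicates 1 and 2, 27.1 and 12.3 on replicates 3 and 4, and 11.8 to 20.9 on the controls, a log2 difference of 0.86 (SE 0.41). With Cre+ replicates 3 and 4 alone the log2 difference of the brighter probe set was 0.01, and without Cre+ replicate 2 it was 0.27.

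Notch3, the Notch receptor of mural cells, overlapped between the genotypes on both of its probe sets. The brighter read 869.6, 770.3, 816.5 and 794.0 on the Cre+ arrays and 817.6, 883.0, 752.0 and 778.7 on the controls, which lie in the same range. The log2 difference was 0.01 (SE 0.08), with means of 813 ± 42.4 and 808 ± 56.9 (SD, n = 4 each), and 0.02 (SE 0.09) on the other probe set.

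Foxf2 and Tbx18 are transcription factors of mural cells, Foxf2 needed for brain pericytes to form and Tbx18 a lineage marker of mural cells that meningeal mesenchyme also makes. Foxf2 read 93.2, 132.0, 69.3 and 55.8 on Cre+ replicates 1 to 4 and 50.1, 56.2, 78.4 and 76.5 on the controls, a log2 difference of 0.31 (SE 0.23), with Cre+ replicates 1 and 2 above every control and the other 2 among them. Tbx18 varied most among the 9, at 304.9, 118.1, 26.1 and 2.6 against 9.3, 24.5, 12.9 and 51.3. Its means of 113 ± 137 and 24.5 ± 19.01 (SD, n = 4 each) gave a log2 difference of 1.02 (SE 0.81). Without Cre+ replicate 1 that fell to 0.33, and with Cre+ replicates 3 and 4 alone it was -0.41, while Foxf2 was then at -0.04. Their dimmer probe sets gave 0.02 (SE 0.24) for Foxf2, at intensities of 1.0 to 16.2, and 0.55 (SE 0.56) for Tbx18.

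Abcc9 encodes SUR2, the sulfonylurea receptor subunit of the potassium channel of pericytes. Its brightest probe set read 316.3, 189.8, 243.0 and 185.0 on the Cre+ arrays and 177.1, 192.8, 162.6 and 176.3 on the controls. Cre+ replicates 1 and 3 were above all controls and replicates 2 and 4 below control replicate 2, with a log2 difference of 0.34 (SE 0.16). The 2 dimmer probe sets gave 0.06 (SE 0.11) and 0.09 (SE 0.13) and overlapped. Anpep, the aminopeptidase N or CD13 of the pericyte membrane, had 1 probe set, whose readings were 19.8, 15.3, 7.9 and 10.7 against 6.2, 9.0, 1.8 and 1.6. Such readings are near or below the added constant, and the log2 difference of 0.51 (SE 0.16) became 1.51 with a constant of 1 and 0.21 with a constant of 50.

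**Figure D2:**
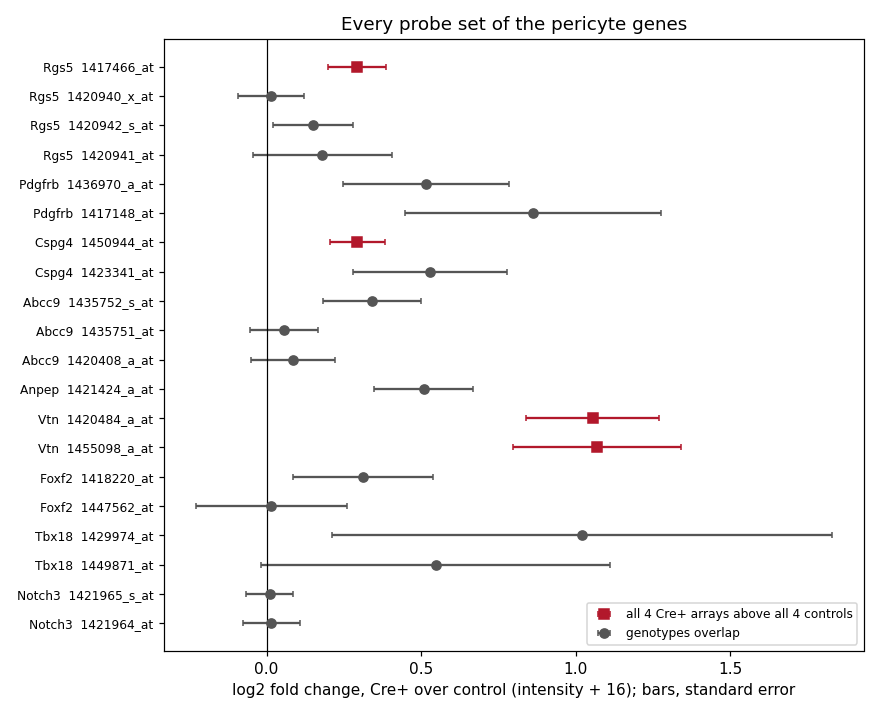
Log2 difference between Cre+ and control (horizontal axis, intensity plus 16) of all 20 probe sets of the pericyte genes, with bars of 1 standard error from the limma fit. The 4 probe sets in red, 1 of Rgs5, 1 of Cspg4 and both of Vtn, have all Cre+ arrays above all controls. All 20 points lie above 0, some by less than 1 standard error, such as both of Notch3. The dimmer Foxf2 probe set is above 0 only on this log2 scale, as its mean intensity was 7.55 on Cre+ arrays and 7.88 on controls. The genes were selected on this contrast, so nothing is read from the shared direction.

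The 9 genes therefore fell into patterns by array. Taken as the mean log2 value of the 9, less that of the controls, Cre+ replicates 1 to 4 stood at 0.89, 0.67, 0.30 and 0.07, and control replicates 1 to 4 at -0.01, -0.01, -0.11 and 0.13. Cre+ replicate 4 was thus below control replicate 4. Leaving out Cre+ replicates 1 and 2, the median of the 9 log2 differences was 0.24, with Vtn at 1.03, Rgs5 at 0.27, Cspg4 at 0.29, Anpep at 0.30 and Abcc9 at 0.24.

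Cre+ replicates 1 and 2 were also the arrays with high mesenchyme genes. All 10 listed mesenchyme genes had log2 differences above 0, with a median of 1.41, and 0 were called by limma, with 1 at an unadjusted p under 0.05 and 0 by the methods' t-test. Their summed normalized intensity ran from 465 to 13678 over the Cre+ arrays and from 440 to 1266 over the controls, and none of the 10 was at 0. The mean of the list was 2.50 and 3.68 above the controls on Cre+ replicates 1 and 2 and -0.10 and -0.38 on replicates 3 and 4. Dcn, the matrix proteoglycan decorin, read 470.1, 267.1, 93.7 and 54.3 against 34.2 to 61.9 (log2 difference 1.54, SE 0.55, limma adjusted p = 0.651). Pdgfrb, Foxf2 and Tbx18 were high on those same 2 arrays. Anpep was also highest on them, at 19.8 and 15.3, though near the added constant. Vtn, Rgs5 and Cspg4 stood above all controls on replicates 3 and 4 too, which follows from their being named for that separation. What part the mesenchyme has in the values of any of these genes was not tested.

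**Figure D3:**
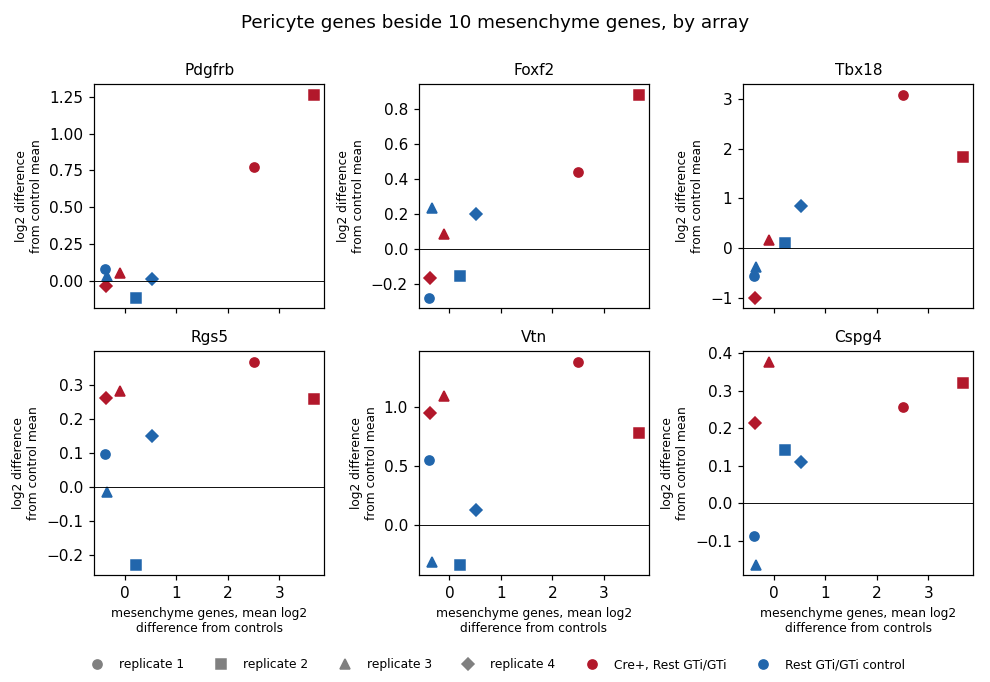
Log2 level of 6 pericyte genes (vertical axes, difference from the control mean, scales differ by panel) against the mean of 10 mesenchyme genes on the same array (horizontal axes), 1 point per array. In the upper panels the high points are Cre+ replicates 1 and 2, at 2.50 and 3.68 on the mesenchyme axis. In the lower panels all 4 Cre+ points lie above the controls, the separation for which those genes were named.

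Of 11 listed markers of microglia and macrophages, the immune cells of the embryonic brain, 9 had every Cre+ array above every control, against 2.48% of all genes. Mrc1 and Itgam overlapped between the genotypes. Of 11 listed, 8 were called higher by limma (C1qa, C1qb, C1qc, Csf1r, Tyrobp, Fcrls, Aif1 and Cx3cr1, log2 differences of 1.17 to 1.62), and 6 by the methods' t-test. The limma count was 3 with the 2 male controls, 1 without scaling, and 0 with Cre+ replicates 3 and 4 alone. Their summed normalized intensity was 1900 to 2076 on Cre+ arrays and 581 to 695 on controls, and none was at 0. The mean of the list stood 1.18 to 1.36 above the controls on the Cre+ arrays and at most 0.08 on a control. Rgs5, Cspg4 and Vtn, named for their separation by genotype, were high on the same arrays. The part of microglia and macrophages in the values of those genes was not tested. Among further genes of the list, Ptprc read 97.9, 54.2, 78.9 and 38.6 against 26.4 to 34.5 (log2 difference 0.83, SE 0.21, limma adjusted p = 0.418), and Mrc1, a macrophage receptor, read 234.1, 130.8, 27.6 and 33.9 against 5.7 to 29.2.

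Other markers of pericytes overlapped between the genotypes without exception. Of 18 listed genes 17 were measured, 0 were called by limma, 1 was higher at an unadjusted p under 0.05 and 0 were called by the methods' t-test. Their median log2 difference was 0.14, with 14 above 0 and 3 below, and none had all Cre+ arrays above all controls. Mcam, the adhesion molecule CD146 of mural and endothelial cells, read 148.8, 149.7, 107.8 and 101.3 on the Cre+ arrays against 84.4 to 109.1 (log2 difference 0.34, SE 0.14, limma adjusted p = 0.701). Kcnj8, the pore subunit that pairs with the product of Abcc9, read 127.2, 101.1, 118.2 and 108.8 against 84.3 to 113.7 (0.22, SE 0.11, adjusted p = 0.758 by limma). S1pr3, a sphingosine phosphate receptor, was high only on Cre+ replicates 1 and 2, at 579.8 and 1018, with 185.5 and 191.3 on the other 2 and 153.6 to 215.1 on the controls (log2 difference 0.99, SE 0.50). The mean of the list stood at 0.65, 0.76, 0.01 and -0.17 on Cre+ replicates 1 to 4.

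Smooth muscle genes, the contractile genes of the mural cells on larger vessels, had a median log2 difference of 0.29 over 15 genes, of which limma called 0, with 4 higher at an unadjusted p under 0.05 and 0 called by the methods' t-test. Tagln, the actin-binding protein transgelin, was the 1 gene of the list without overlap, at 56.2, 80.7, 27.1 and 32.8 against 5.7, 4.2, 2.8 and 14.4 (log2 difference 1.47, SE 0.27, limma adjusted p = 0.166). Over all genes 2.48% had every Cre+ array above every control. All controls of Tagln lay below the added constant of 16, so the size of its log2 difference depends on that constant. Actg2, a smooth muscle actin, was dim too, at 10.9 to 25.3 on Cre+ arrays against 2.8 to 15.6. It gave 0.61 (SE 0.19, limma adjusted p = 0.568). Myocd, the coactivator that drives the smooth muscle programme, was dim and gave 0.65 (SE 0.24, limma adjusted p = 0.674). The mean of the list was at 0.65 and 0.95 on Cre+ replicates 1 and 2 and at 0.11 and 0.17 on replicates 3 and 4, against -0.10 to 0.08 on controls.

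**Figure D4:**
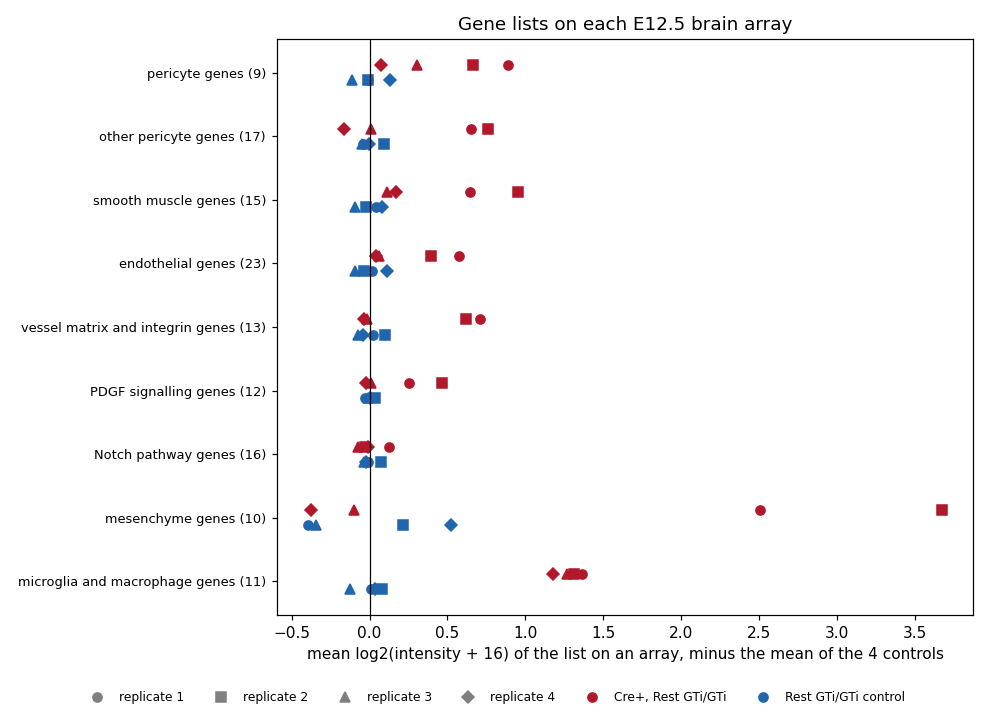
Mean log2 value of each gene list on each array, as the difference from the average of the 4 controls (horizontal axis), with the number of genes in brackets and marker shape for the replicate number. The mesenchyme list reaches 2.50 and 3.68 on Cre+ replicates 1 and 2 alone, and the microglia and macrophage list stands at 1.18 to 1.36 on all 4 Cre+ arrays.

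Endothelial genes, which mark the cells that pericytes wrap, were above 0 for 21 of 23, with a median log2 difference of 0.29. Limma called 0 of them, 6 were higher at an unadjusted p under 0.05, and the methods' t-test called 0. The mean of the list was at 0.58 and 0.39 on Cre+ replicates 1 and 2 and at 0.06 and 0.04 on replicates 3 and 4, below the 0.11 of control replicate 4. Cldn5, the tight junction protein of the blood-brain barrier, read 305.0, 278.8, 278.3 and 260.5 on the Cre+ arrays and 234.6, 241.1, 217.9 and 203.4 on the controls, without overlap (log2 difference 0.31, SE 0.08, limma adjusted p = 0.441). Eng, the coreceptor endoglin, was also without overlap, at 160.3, 131.3, 113.4 and 129.2 against 96.1 to 111.1 (0.30, SE 0.10, limma adjusted p = 0.607). Of the 23 genes 2 were thus separated, against 2.48% of all genes. Egfl7, a factor that endothelial cells secrete, overlapped, at 339.7, 255.0, 152.3 and 153.2 against 110.6 to 161.5 (0.66, SE 0.25, limma adjusted p = 0.675).

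In the pathway of Pdgfrb, limma called 0 of 12 genes and the methods' t-test 0, with 2 higher at an unadjusted p under 0.05 and a median log2 difference of 0.13. Pdgfb, the ligand from endothelial cells, read 93.1, 86.4, 83.8 and 68.6 against 62.5, 65.2, 73.3 and 71.3, and Cre+ replicate 4 lay among the controls (log2 difference 0.23, SE 0.09, limma adjusted p = 0.695). Shc1, an adaptor bound to the activated receptor, gave 0.44 (SE 0.17, limma adjusted p = 0.682) and Pdgfa, the ligand of the related receptor, 0.21 (SE 0.10, limma adjusted p = 0.754). Log2 differences of -0.16 to 0.08 were measured for adaptors and enzymes downstream of the receptor, namely Grb2, Ptpn11, Crk, Plcg1, Sos1 and Pik3r1.

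In the pathway of Notch3, limma called 0 of 16 genes and the methods' t-test 0, with 1 lower at an unadjusted p under 0.05 and a median log2 difference of 0.02. Dll4, an endothelial Notch ligand, was dim, at 31.2, 19.8, 22.5 and 42.7 against 37.3, 46.2, 49.7 and 37.1 (log2 difference -0.40, SE 0.16, limma adjusted p = 0.693). Rbpj, the DNA-binding effector, gave -0.15 (SE 0.08, limma adjusted p = 0.797) and Jag1, a ligand of mural cells and endothelium, 0.19 (SE 0.12, limma adjusted p = 0.816). Many genes of this pathway also act in neural progenitors.

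Among vessel matrix and integrin genes, the group to which vitronectin and its receptors belong, limma called 0 of 13 and the methods' t-test 0, with 1 higher at an unadjusted p under 0.05 and a median log2 difference of 0.34. Itgav, the alpha chain of the vitronectin receptors, read 909.0, 1000.4, 721.7 and 793.8 against 732.5, 688.8, 663.8 and 691.2 (log2 difference 0.29, SE 0.11, limma adjusted p = 0.669), with Cre+ replicate 3 below control replicate 1. Col4a1 and Fn1, collagen and fibronectin of the basement membrane, gave 0.68 (SE 0.30) and 0.50 (SE 0.25), and both were highest on Cre+ replicates 1 and 2. The mean of the list was at 0.71, 0.62, -0.02 and -0.04 on Cre+ replicates 1 to 4. Vtn itself, named above for its separation, was above the controls on all 4.

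**Figure D5:**
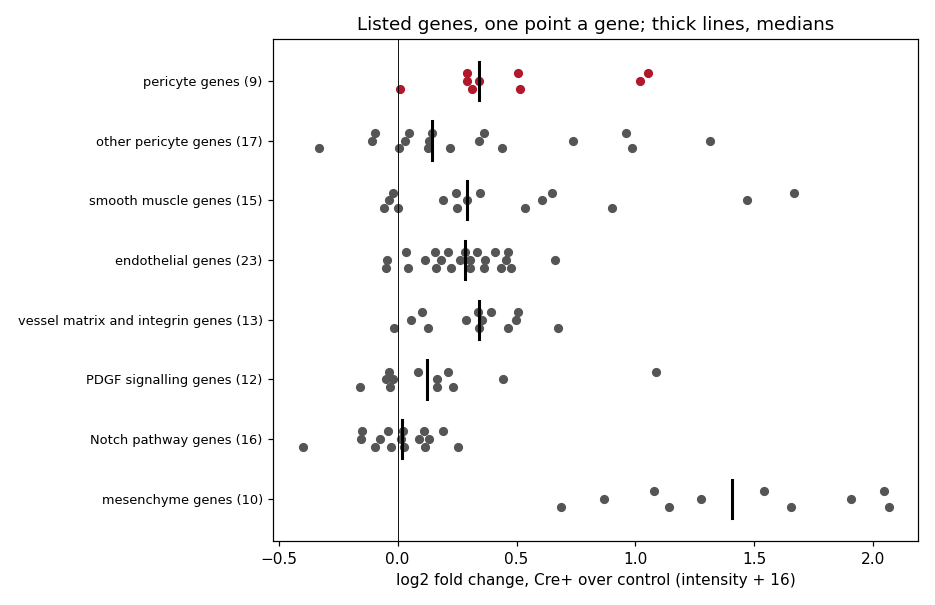
Log2 difference between Cre+ and control (horizontal axis, intensity plus 16) of every gene in 8 lists, 1 point per gene and a thick line at each median. The pericyte genes, in red, have a median of 0.34, the other pericyte genes 0.14, the Notch pathway genes 0.02 and the mesenchyme genes 1.41.

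The nearest relatives of the 9 genes in their families had a median log2 difference of 0.01 over 11 genes, of which limma called 0 and the methods' t-test 0, with 0 at an unadjusted p under 0.05. Rgs16, the regulator with the smallest p in that list, read lower on average, with a log2 difference of -0.16 (SE 0.10, limma adjusted p = 0.814), and Notch2 gave 0.26 (SE 0.16, limma adjusted p = 0.822). Tbx15, a T-box factor of mesenchyme, read 14.7 and 111.8 on Cre+ replicates 1 and 2 and at most 3.6 on any other array. Pdgfra, the receptor of mesenchyme and of oligodendrocyte precursors, read 235.6, 708.9, 52.3 and 49.7 against 33.9 to 100.5, the same 2 arrays that were high for Pdgfrb.

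Because NG2 also marks oligodendrocyte precursors, genes of that lineage were set beside Cspg4. Of 7 genes measured, limma called 0 and the methods' t-test 0, with 3 lower at an unadjusted p under 0.05 and a median log2 difference of -0.30. Olig2, the factor that specifies the lineage, read 152.1, 163.1, 178.2 and 227.0 on the Cre+ arrays and 300.7, 330.0, 269.1 and 237.4 on the controls, lower on every Cre+ array (log2 difference -0.62, SE 0.14, limma adjusted p = 0.316). Nkx2-2 was also lower on every Cre+ array (-0.41, SE 0.14, limma adjusted p = 0.602), and Gpr17 gave -0.30 (SE 0.10, limma adjusted p = 0.606). The share of all genes lower on every Cre+ array was not counted, so nothing is read from the separation of Olig2 and Nkx2-2. The summed intensity of the list was 1051 to 1671 on Cre+ arrays and 1149 to 1521 on controls. In all, 4 of the 7 had log2 differences below 0 and 3 above, among the latter Pdgfra at 1.09 (SE 0.74). The source cell of Cspg4 was not tested.

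Blood and the position of the dissection were read in the same way. Of 4 erythroid genes measured, limma called 0 and the methods' t-test 0, with 0 at an unadjusted p under 0.05 and a median log2 difference of 0.07. Of 10 hindbrain Hox genes measured, limma called 0 and the methods' t-test 0, with 0 at an unadjusted p under 0.05 and a median of 0.86. Of the 10, Hoxc4 alone had every Cre+ array above every control, against 2.48% of all genes. The mean of the Hox list stood at -0.54, 0.68, 2.18 and 1.34 on Cre+ replicates 1 to 4 and at 0.79, -0.34, -0.42 and -0.04 on the controls. The part of blood and of position in the values of the pericyte genes was not tested.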

How the data were processed

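RNA of E12.5 mouse brain, from 4 Cre+ and 4 control samples that all carried Rest GTi/GTi, had been hybridised to Affymetrix Mouse 430_2 arrays. Per the labels and the study's methods the authors normalized by RMA, but the deposited intensity values are linear, unscaled (array medians 40.9 to 68) and include values near 0, and the step that made them is not stated. Here 64 control probe sets were left out, and 45037 were quantile-normalized, raised by a constant of 16 and put on the log2 scale. Of these, 34945 name 1 gene, 932 several and 9160 none. The brightest probe set stood for a gene. The mean of 30.6% of probe sets lay below the constant, so their differences are understated.

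Limma 3.58.1 in R 4.3.3 (lmFit, eBayes) was fitted over all probe sets and tested on simulated data, with Benjamini-Hochberg adjustment and calls at 0.05. Members are described by the estimate and SE, with no test. The number of arrays limits the precision, and arrays give no read depth. Replicate numbers were not used to pair the arrays in the main fit. The title of the dataset calls the genotypes littermates, but which arrays share a litter is not stated. The labels supplied the groups.

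The members, lists and alternatives were chosen with earlier results of these data known, the sex and mesenchyme alternatives included. Named were all members with every probe set, called genes of each list, up to 3 further genes with the smallest p, the 5 genes most correlated with each member bright enough to compare, and Xist, Eif2s3y, Col3a1 and Rest as checks of the arrays. Outside that rule, Pdgfra, Sox2, Nes, Tubb3, Grb2, Ptpn11, Crk, Plcg1, Sos1 and Pik3r1 were chosen after their values were seen. Promoter windows are RefSeq's, with 8 of 9 members matched. List counts cover the genes measured here. Alternatives covered scaling, the constant, the choice of probe sets, the arrays, a replicate block and the test.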

Additional observations from a re-analysis of the deposited data

Results flagged for a closer look

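On the _x_at probe set of Rgs5, Cre+ replicate 2 read 105.1 while the other 3 Cre+ arrays lay between 118.7 and 121.2, so its gap to the nearest array made up 0.853 of the group's range on the scale of log2(intensity + 16). That was 1 of 40 groups of 4 arrays examined over the 20 probe sets, and chance alone flags about 1 in 20 such groups. The same array was not apart on the brightest probe set of Rgs5, where it read 540.8 beside 541.5 on Cre+ replicate 4.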

How the results depend on the processing

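The number of genes called over the whole array, 41, became 2 without scaling, 26 with a constant of 1, 0 with Cre+ replicates 3 and 4 alone, 5 with the 2 male controls, 14 by the methods' t-test with equal variances, 0 with unequal variances, 48 with the mean of a gene's probe sets and 50 by eBayes with trend and robust. With the replicate number as a block 0 were called. The microglia and macrophage list, with 8 calls, had 0 under that block and with unequal variances. Arrays of the same number were not more alike (residual correlations of -0.130 to 0.00676 for the same number and -0.0611 to 0.106 for different numbers). With so few arrays this cannot exclude pairing by litter. Leaving out 1 array at a time gave 21 to 31 calls, with 21 without Cre+ replicate 2, 26 without Cre+ replicate 3, and 26, 24, 23 and 27 without control replicates 1 to 4.

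The number of separated pericyte genes, 3, became 0 without scaling, 5 with the 2 male controls and 3 to 5 when 1 array was left out, with 5 reached without control replicate 2. In all 22 alternatives 0 genes were called in the lists of other pericyte, smooth muscle, PDGF, Notch, endothelial and matrix genes. The median of the 9 log2 differences ran from 0.24 to 0.47 over 21 alternatives. Rgs5, Pdgfrb, Cspg4, Abcc9, Anpep and Vtn were above 0 in every alternative that measured them. Foxf2 fell below 0 in 1, as did Tbx18, both with Cre+ replicates 3 and 4 alone (-0.04 and -0.41), and Notch3 ran from -0.05 to 0.07. Without _s_at and _x_at probe sets Abcc9 gave 0.06. The filter on dim probe sets left Cspg4 and Anpep untested. With 2 Cre+ arrays or 2 controls the comparison has fewer samples. Other causes were not tested. Signals near the constant limit Cspg4, Anpep and the dimmer probe sets.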

Other observations

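The genes whose log2 values ran most like each pericyte gene over the 8 arrays were listed by Pearson r, among 11219 other genes with a mean intensity of at least 50. Such values pool both genotypes, rest on 8 arrays and carry no p. For Vtn they were Mecom, Adcy3, Zfp365, Fastkd2 and Sirpa (0.98 to 0.94), and for Rgs5 Gtse1, Clu, Slc6a15, Zfp365 and Qsox2 (0.98 to 0.94), so that Zfp365 was on both lists. For Pdgfrb they were Gpc3, Mdfic, Myl9, Mmp2 and Sec24d (0.99 to 0.99), among them Myl9, a smooth muscle myosin light chain, and Mmp2, a matrix metalloprotease of mesenchyme. For Foxf2 they were Ssr2, Crip1, Emc2, Klf6 and Igfbp3 (0.98 to 0.96) and for Tbx18 Rab29, Nfix, Tpi1, Tenm4 and Cd164 (0.99 to 0.98). For Abcc9 they were Mideas, Psat1, Rrp1b, Pgghg and Tbl1x (0.97 to 0.93) and for Notch3 Map4, Fst, Lig3, Wnk1 and Pfkl (0.95 to 0.93). Cspg4 and Anpep were too dim to be compared.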
